A study of Danio rerio with 18 samples.

Results

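Zebrafish homozygous for the sox10 allele ci3020 go on developing without functional Sox10, and the libraries described here follow whole mutant bodies from 45 hours post-fertilization (hpf) to the larval stage labelled 4 days post-fertilization (dpf). The comparison was set by genotype and stage, not by any measured value: the 3 mutant libraries of the 4 dpf table against the 3 mutant libraries of the 45 hpf table, matched by gene identifier, which are 6 of the 18 samples of the series. The 3 wild-type libraries of each stage served as the yardstick for what development normally brings. Each library was made from a pool of whole animals, 10 to 12 mutants at 4 dpf, 10 to 15 mutants at 45 hpf, 10 to 15 wild types at 4 dpf and 10 to 25 wild types at 45 hpf. Wild types were siblings or cousins from lines kept as heterozygotes, and the labels give no further allele or treatment for any group. P-values measure the spread between these pools. The ci3020 allele is a deletion that takes the first coding exon together with some untranslated sequence before it. Some transcription remains, so the transcript itself does not mark the mutants. The table labelled 7 dpf repeats the 4 dpf values in all 25896 lines and was not used, and the files do not show at which of these ages the larvae were collected. The larval pool sizes are therefore unsettled too: for 7 dpf they are given as 7 to 18 mutants and 12 to 30 wild types. "Larval" below means the libraries of the 4 dpf table.

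Sox10 is an HMG-box transcription factor of the SoxE family. In the neural crest, a migratory population that leaves the dorsal neural tube, it is needed for the non-skeletal fates: melanophores, xanthophores and iridophores, Schwann cells and satellite glia, and enteric and other autonomic neurons. It also acts in oligodendrocytes and in the otic epithelium. The cranial neural crest also forms cartilage and bone, while retina, pancreas, gut epithelium and muscle have other origins.

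Values are TPM, a transcript's share of its library scaled for its length, as the authors deposited them. The study's methods give a read depth per sample for the sequencing order, but TPM keep no read count, so the depth reached in each library is unknown and precision rests on the spread between 3 libraries per group. Changes are larval minus 45 hpf on the log2(TPM + 1) scale, given ± SE from a limma fit of all 12 libraries, and they understate the change of low genes. A gene was called at a Benjamini-Hochberg adjusted p of at most 0.05 over 18987 tested genes together with a change of at least 2-fold. The genotype difference is the change in mutants minus the change in wild types, tested in the same fit. The stages came in separate tables, so stage and anything else that set the tables apart cannot be told apart, whereas the genotype difference compares libraries within each table.

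Among the mutant libraries, larval replicate 1 and 45 hpf replicate 3 stood apart in composition. Genes above 10000 TPM in any of the 12 libraries, taken as a single set, made up 42.5, 25.8 and 29.7% of the 3 larval mutant libraries and 14.4, 12.5 and 27.9% of the mutant libraries at 45 hpf, against 17.6 to 20.4% in larval wild types and 11.7 to 17.2% in wild types at 45 hpf. A single gene without a symbol, ENSDARG00000111458, took 15.6% of larval mutant replicate 1 and 12.3% of 45 hpf mutant replicate 3, and at most 7.70% of any other mutant library. A larger share for these genes leaves a smaller one for all others, and the median change over all tested genes was -0.31 in mutants and -0.15 in wild types as deposited, and -0.06 in mutants and -0.05 in wild types after median-of-ratios rescaling. Changes are to be read against these medians.

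The residual sox10 transcript (ENSDARG00000077467) was present in every mutant library. It stood at 5.77, 8.41 and 6.39 TPM in larval mutants, against 11.2, 9.14 and 6.61 TPM in mutants at 45 hpf, and at 7.33, 5.25 and 6.02 TPM in larval wild types, against 9.47, 14.0 and 11.7 TPM in wild types at 45 hpf. The mutant libraries of the stages did not separate (-0.33 ± 0.21, adjusted p = 0.19), and neither the genotype difference (0.48 ± 0.30, adjusted p = 0.45) nor the wild-type change (-0.82 ± 0.21) was called, the wild-type change being under 2-fold.

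Most of the changes seen in wild types between the stages were also seen in mutants. Of 18987 tested genes, 2164 rose in mutants (11.4%) and 4500 fell (23.7%), together 35.1%, against 3058 that rose in wild types (16.1%) and 4092 that fell (21.6%). Counts of list members below are to be read against these called shares. The mutant libraries of the stages did not overlap for 21.4% of genes on the higher side and 40.2% on the lower side. After rescaling the mutant split was 3148 higher (16.6%) and 3263 lower (17.2%), and without larval replicate 1 and 45 hpf replicate 3 of the mutants, as deposited, it was 2215 and 4662. Of the genes that rose in wild types, 1849 also rose in mutants, which is 60.5% of the wild-type rises and 85.4% of the mutant rises. Of those that fell in wild types, 3365 also fell in mutants, 82.2% of the wild-type falls and 74.8% of the mutant falls. Among the 3058 wild-type rises, 2950 had a change above 0 in mutants, with a median of 1.22 in mutants and 1.65 in wild types. Among the 4092 wild-type falls, 4073 had a change below 0 in mutants, with medians of -1.48 in mutants and -1.52 in wild types. Over all tested genes the changes in mutants and wild types had a Pearson correlation of 0.91, given as a description since genes are no replicates. Only 10 genes were called in opposite directions; all 10 fell in mutants and rose in wild types, and 6 of them belong to the crystallin family crygm2d.

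The genotype difference itself was called for 81 genes, 0.427% of those tested: 40 in which the mutant change lay above the wild-type change (0.211%) and 41 in which it lay below (0.216%). After rescaling the split was 56 and 48, and 61 of the 81 genes stayed called. These calls depended on single libraries. Left out one at a time, 11 of the 12 libraries gave 11 to 43 positive and 6 to 70 negative calls, while leaving out larval mutant replicate 2 gave 210 and 735; without larval mutant replicate 1 and 45 hpf mutant replicate 3 together there were 11 and 9. Genes called in all 12 leave-one-out fits numbered 14, 9 of them positive and 5 negative, and for each called gene below the number of such fits is given. With a library left out, a gene could fail the filter and go untested. Among such genes, slc2a15a, oacyl, LOC799643 and LOC108191592 were tested in 9 of the 12 fits and called in each of those 9. Each of them passed the filter only through 3 libraries and went untested without any 1 of these. Those 9 fits therefore cannot show whether the call depends on a single one of the libraries where the gene was high. With a pseudocount of 0.1 in place of 1, 25 of the 81 genes stayed called. Genes called in all 12 fits that this setting lost included slc2a11b, cd59a and si:dkey-200l5.4.

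**Figure D1:**
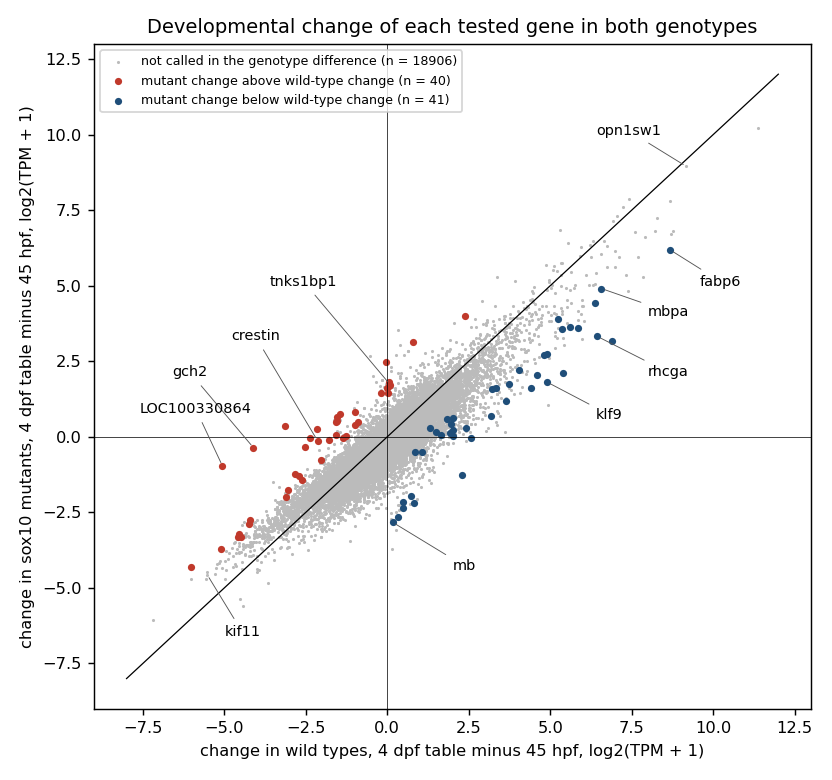
Change of each of the 18987 tested genes between the 45 hpf and 4 dpf tables, in sox10 mutants (vertical axis) and in wild types (horizontal axis), both as 4 dpf table minus 45 hpf in log2(TPM + 1); the diagonal marks equal change. Most genes lie near the diagonal; the 40 genes in red changed more positively in mutants and the 41 in blue more negatively, with gch2 and LOC100330864 furthest above it among the labelled genes and klf9, rhcga and mb below it.

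Of the 10 named genes with the largest rise in mutants, 6 were cone genes (pde6ha, opn1sw1, gngt2b, opn1mw1, gnat2 and gnb3b), 2 encoded digestive enzymes (prss1 and ctrb.1) and 2 had clone names (si:dkey-7c18.24 and si:ch211-132b12.7). Their changes lay between 6.83 and 10.21. Of 42 tested photoreceptor and phototransduction genes, 36 rose and 2 fell in mutants, with a median change of 4.33, and 37 rose and 1 fell in wild types, with a median of 4.65; none was called in the genotype difference. The cone phosphodiesterase subunit pde6ha had 3529.8, 2521 and 3020.3 TPM in larval mutants, against 2.27, 2.17 and 0.554 TPM in mutants at 45 hpf (10.21 ± 0.40, adjusted p = 2.0e-09). The ultraviolet cone opsin opn1sw1 had 842, 809 and 424 TPM in larval mutants, against 0.399, 0.467 and 0.173 TPM at 45 hpf, and the stages did not overlap (8.95 ± 0.27, adjusted p = 2.2e-10; wild-type change 9.18). Cone transducin gnat2 was close to equal among the larval mutant libraries, at 299.7, 294 and 288 TPM, against 0.862, 0.931 and 0.805 TPM at 45 hpf (7.30 ± 0.18, adjusted p = 6.0e-11), and its change in wild types was 7.06. Rhodopsin, rho, reached 504, 935 and 617 TPM in larval mutants, against 14.5, 7.46 and 8.71 TPM at 45 hpf (5.93 ± 0.46, adjusted p = 3.6e-07), with a genotype difference that was not called (-1.75 ± 0.65, adjusted p = 0.22). The members that fell in mutants were nr2e3, a nuclear receptor of rod precursors (-1.93 ± 0.37, adjusted p = 6.8e-04), and the photoreceptor homeobox gene crx, named after its values were seen (-1.24 ± 0.36, adjusted p = 0.0095), which was not called in wild types (-0.21 ± 0.36, adjusted p = 0.63).

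Neuronal genes gained as well. Of 53 tested genes of mature neurons and synapses, 24 rose and 4 fell in mutants, against 30 and 1 in wild types, with medians of 0.88 in mutants and 1.18 in wild types, and no genotype difference was called. The NMDA receptor subunit grin1b had 261, 205 and 377 TPM in larval mutants, against 11.2, 9.13 and 7.49 TPM at 45 hpf (4.75 ± 0.23, adjusted p = 8.4e-09; wild types 4.47). Radial glia and astroglia genes mostly fell, 6 of 11 tested in mutants, where 2 rose, and 5 in wild types, where 2 rose. Their medians were -1.14 in mutants and -0.99 in wild types. The largest rise of this list in mutants was that of glutamine synthetase, glula, made by radial glia and Müller glia. In larval mutants glula had 522, 458 and 453 TPM, against 22.4, 21.1 and 15.7 TPM at 45 hpf (4.54 ± 0.15, adjusted p = 5.3e-10). In wild types glula had 470.0, 575 and 467 TPM in larvae, against 23.6, 22.9 and 22.5 TPM at 45 hpf. Its genotype difference was 0.15 ± 0.21 and its libraries separated by stage in both genotypes.

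Genes of digestive organs rose in mutants, unevenly between pools. Of 25 tested exocrine pancreas genes, 21 rose and 1 fell in mutants and 23 rose and 1 fell in wild types, with medians of 2.51 in mutants and 4.25 in wild types; the genotype difference had a median of -1.22, against -0.12 over all tested genes, and no member was called. Trypsinogen, prss1, had 72.7, 561 and 411 TPM in larval mutants, against 0.784, 0.716 and 0.634 TPM at 45 hpf (7.23 ± 0.57, adjusted p = 4.4e-07). In wild types prss1 had 609, 327 and 750.2 TPM in larvae, against 0.611, 0.709 and 0.854 TPM at 45 hpf. Chymotrypsinogen, ctrb.1, had 31.0, 251 and 196 TPM in larval mutants, against 0, 0.0915 and 0 TPM at 45 hpf (6.83 ± 0.57, adjusted p = 8.0e-07). For both enzymes larval mutant replicate 1 lay several-fold below replicates 2 and 3. The trypsins and chymotrypsins belong to families of close copies, and their split between copies is uncertain. The member that fell, ptf1a, a transcription factor of pancreatic and cerebellar progenitors, did so in both genotypes (-2.87 in mutants and -3.15 in wild types).

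Of 31 tested liver genes 6 rose in mutants and 16 in wild types, with medians of 0.59 in mutants and 1.41 in wild types and no genotype difference called. After rescaling 10 rose in mutants and 18 in wild types, and with 1 mutant library left out 5 to 9 rose in mutants. The liver fatty acid-binding protein fabp10a had 80.0, 404 and 100.4 TPM in larval mutants, replicate 2 far above the others, against 0.458, 0.314 and 0.209 TPM at 45 hpf (6.82 ± 0.63, adjusted p = 1.7e-06). The protease inhibitor serpina1 had 3.06, 19.2 and 3.48 TPM in larval mutants, against 5.50, 3.99 and 5.17 TPM at 45 hpf, which overlapped (0.29 ± 0.70, adjusted p = 0.73). In wild types serpina1 had 36.6, 9.27 and 89.5 TPM in larvae, against 3.36, 3.85 and 1.67 TPM at 45 hpf; its genotype difference was not called (-2.80 ± 0.99, adjusted p = 0.21). In the intestine 11 of 26 tested genes rose and 3 fell in mutants, against 15 and 2 in wild types; after rescaling none fell in mutants. The ileal bile acid-binding protein fabp6 rose to 48.0, 156 and 87.6 TPM in larval mutants, against 0, 0.412 and 0.246 TPM at 45 hpf. In wild types fabp6 had 521, 578 and 482 TPM in larvae, against 0.366, 0.199 and 0.295 TPM at 45 hpf. Its gain was smaller in mutants (difference -2.49 ± 0.44, adjusted p = 0.036; called in 3 of 12 leave-one-out fits).

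**Figure D2:**
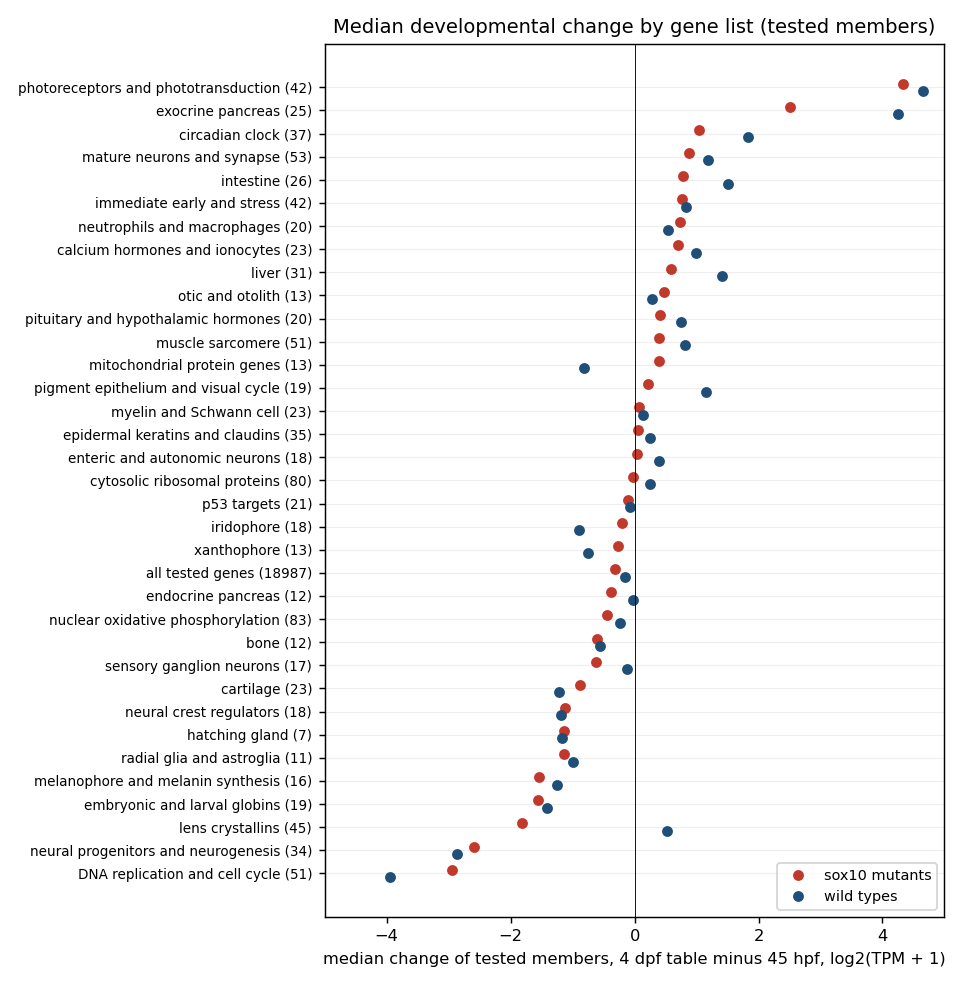
Median change of the tested members of each gene list between the 45 hpf and 4 dpf tables, 4 dpf table minus 45 hpf in log2(TPM + 1), in sox10 mutants and in wild types. Photoreceptor genes have medians of 4.33 in mutants and 4.65 in wild types and cell cycle genes -2.94 and -3.95, whereas lens crystallins lie on opposite sides of 0, at -1.82 in mutants and 0.53 in wild types.

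Of the 10 named genes with the largest fall in mutants, 3 were embryonic beta globins (hbbe3 and 2 genes under the symbol hbbe1.3) and 4 act in mitosis or nuclear import (kif11, ccnb1, tpx2 and kpna2), beside fabp4b, fkbp1ab and si:ch73-21g5.7. Their changes lay between -6.07 and -4.47. Of 51 tested DNA replication and cell cycle genes, 50 fell and none rose in mutants, with a median of -2.94, and all 51 fell in wild types, with a median of -3.95. The mitotic kinesin kif11 had 3.46, 3.56 and 3.43 TPM in larval mutants, against 108, 111 and 96.0 TPM at 45 hpf (-4.56 ± 0.15, adjusted p = 4.4e-10). In wild types kif11 had 2.29, 1.38 and 1.35 TPM in larvae, against 124, 119 and 119 TPM at 45 hpf (-5.53 ± 0.15, adjusted p = 6.2e-11). All 51 genes had a less negative change in mutants than in wild types, as deposited and after rescaling, with a median difference of 0.83, against -0.12 over all tested genes. Over all tested genes the difference was below 0 for 60.5% as deposited and 45.2% after rescaling. At 45 hpf the 51 genes summed to 2458 to 3175 TPM in mutants, against 4069 to 4174 TPM in wild types. In larvae the sums overlapped, at 252 to 439 TPM in mutants and 252 to 343 TPM in wild types. The difference was called for 2 of the 51 genes, both subunits of ribonucleotide reductase, the enzyme that makes deoxynucleotides. The small subunit, rrm2, had 22.2, 20.1 and 10.5 TPM in larval mutants, against 378, 369 and 312 TPM at 45 hpf. In wild types rrm2 had 6.27, 6.24 and 6.43 TPM in larvae, against 440.1, 489 and 480.4 TPM at 45 hpf (difference 1.70 ± 0.30, adjusted p = 0.036; called in 3 of 12 leave-one-out fits, range 1.51 to 2.01, and not after rescaling). The large subunit, rrm1, named after its values were seen, differed by 1.38 ± 0.21, adjusted p = 0.015 (7 of 12 fits). The replication factor gins1 overlapped between the mutant stages, with 12.2, 8.10 and 15.5 TPM in larval mutants, against 14.2, 13.9 and 12.8 TPM at 45 hpf (-0.22 ± 0.22, adjusted p = 0.41), while it fell in wild types (-1.43 ± 0.22, adjusted p = 1.1e-04); its genotype difference was not called (1.22 ± 0.32, adjusted p = 0.12).

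Genes of embryonic programmes fell in both genotypes. Of 34 tested neural progenitor and neurogenesis genes 29 fell and 1 rose in mutants, and 28 fell and 1 rose in wild types, with medians of -2.59 in mutants and -2.87 in wild types and no genotype difference called. The Notch ligand dlb had 4.12, 5.24 and 4.14 TPM in larval mutants, against 95.5, 105 and 82.8 TPM at 45 hpf (-4.12 ± 0.16, adjusted p = 1.7e-09), and the member that rose was the neuronal differentiation factor neurod6a (1.42 ± 0.19, adjusted p = 4.0e-05). Of 19 tested genes of globins and red cell maturation, 13 fell in mutants and 11 in wild types. The embryonic beta globin hbbe3 was listed at 0.131, 0 and 0 TPM in larval mutants and at 0 in all larval wild types, against 46.0, 19.4 and 20.0 TPM in mutants and 69.1, 72.6 and 53.6 TPM in wild types at 45 hpf (change in mutants -4.71 ± 0.27, adjusted p = 3.0e-08). The globins are close copies, and reads may be split between them. The hatching enzyme he1.1 fell in mutants (-2.28 ± 0.59, adjusted p = 0.0051), as did 3 other tested genes of the hatching gland, of 7; in wild types 4 of 7 fell.

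Among neural crest regulators most fell with age in mutants as in wild types. Of 18 tested genes 11 fell and none rose in mutants, with a median of -1.13, and 11 fell in wild types, with a median of -1.19, 10 of them shared; after rescaling 7 fell in mutants. The percentage of all tested genes called lower was 23.7% in mutants and 21.6% in wild types. The forkhead factor foxd3, which acts in early crest, had 2.87, 5.44 and 3.67 TPM in larval mutants, against 17.0, 11.6 and 10.4 TPM at 45 hpf (-1.49 ± 0.25, adjusted p = 2.5e-04). The SoxE gene sox9b, active in crest, cartilage and the retina, had 5.91, 9.34 and 6.93 TPM in larval mutants, against 65.6, 61.2 and 50.5 TPM at 45 hpf (-2.85 ± 0.16, adjusted p = 3.3e-08), and its genotype difference was 0.49 ± 0.23. In whole bodies fewer cells of a type and less RNA per cell cannot be told apart, here and for every gene below.

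The member of this list called in the genotype difference was crestin, a multicopy transcript that marks the zebrafish neural crest and its early derivatives. It had 1.88, 1.73 and 2.85 TPM in larval mutants, against 2.78, 2.68 and 1.88 TPM in mutants at 45 hpf, so that the stages overlapped (-0.13 ± 0.18, adjusted p = 0.54; 0.12 after rescaling). In wild types it had 1.51, 1.73 and 1.4 TPM at the larval stage, against 8.86, 11.1 and 10.8 TPM at 45 hpf, which did not overlap (-2.14 ± 0.18, adjusted p = 5.8e-07). The difference of 2.01 ± 0.26, adjusted p = 0.0052 was called in 12 of 12 leave-one-out fits. Mutants already stood below wild types at 45 hpf (-1.71 ± 0.18, adjusted p = 3.7e-04), and no mutant library of either stage exceeded 2.85 TPM.

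The other missing losses took the same form. A loss was counted as missing where a gene was called lower in wild types, was not called lower in mutants and was called in the genotype difference; 17 genes met this. Of them 16 were also called lower in mutants than in wild types at 45 hpf, where 0.327% of tested genes were called lower and 0.0211% higher. At the larval stage 5 were called lower, where 14.4% of tested genes were called lower and 0.779% higher. Over all tested genes the larval calls numbered 2740 lower and 148 higher as deposited, and 1404 lower and 657 higher after rescaling. These stage contrasts use the same libraries as the genotype difference and are no independent evidence. The group held 4 of 13 tested xanthophore genes and 1 of 18 tested iridophore genes.

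Xanthophores, the yellow pigment cells, make pteridines and take up carotenoids. Of 13 tested xanthophore genes 3 fell and none rose in mutants, where 23.7% of all tested genes fell and 11.4% rose, with a median of -0.27, against 5 that fell and 1 that rose in wild types, with a median of -0.75, and 4 were called in the genotype difference. The GTP cyclohydrolase gene gch2, the first step of pteridine synthesis, had 1.62, 0.967 and 0.989 TPM in larval mutants, against 2.15, 1.85 and 1.4 TPM in mutants at 45 hpf (-0.36 ± 0.21, adjusted p = 0.15). In wild types it had 5.16, 3.02 and 3.17 TPM at the larval stage, against 75.0, 94.5 and 71.9 TPM at 45 hpf (-4.11 ± 0.21, adjusted p = 5.8e-09). Every mutant library of either stage thus lay below every wild-type library, and the difference of 3.75 ± 0.29, adjusted p = 1.0e-04 held in 12 of 12 leave-one-out fits. The aldehyde oxidase gene aox5 had 0.722, 0.337 and 0.656 TPM in larval mutants, against 0.0791, 0.0791 and 0.122 TPM in mutants at 45 hpf. In wild types aox5 had 1.35, 1.49 and 1.94 TPM in larvae, against 6.44, 6.88 and 6.44 TPM at 45 hpf (difference 2.07 ± 0.21, adjusted p = 8.3e-04; 12 of 12 fits). Its larval mutant libraries were all above those at 45 hpf, by less than 2-fold on the tested scale (0.52 ± 0.15). All mutant libraries lay below 1 TPM, so aox5 passed the filter only through wild types. Its 45 hpf mutant values left no room for a 2-fold fall on the tested scale, whichever libraries were fitted.

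Members of the glucose transporter family listed for xanthophores differed in their changes. For slc2a11b the values were 0.738, 0.961 and 0.313 TPM in larval mutants, against 1.07, 1.28 and 0.859 TPM in mutants at 45 hpf. In wild types slc2a11b had 1.69, 1.66 and 1.41 TPM in larvae, against 13.5, 14.9 and 13.7 TPM at 45 hpf (difference 2.22 ± 0.24, adjusted p = 0.0014; 12 of 12 fits). For slc2a15a the difference was 1.67 ± 0.22, adjusted p = 0.0070 (9 of 12 fits), with at most 0.246 TPM in any mutant library. It thus passed the filter only through wild-type libraries, and its 45 hpf mutant values left no room for a 2-fold fall on the tested scale. For slc2a15b, in contrast, the fall was in mutants: 0.711, 1.41 and 1.22 TPM in larval mutants, against 5.25, 5.21 and 3.06 TPM in mutants at 45 hpf (-1.37 ± 0.23, adjusted p = 2.6e-04). In wild types slc2a15b had 8.46, 4.83 and 8.30 TPM in larvae, against 11.3, 12.4 and 12.1 TPM at 45 hpf (-0.69 ± 0.23, adjusted p = 0.020, under 2-fold); its difference was not called (-0.68 ± 0.33, adjusted p = 0.34). The transcription factor pax7b likewise fell in mutants (-1.42 ± 0.32, adjusted p = 0.0022), with a difference that was not called (-0.61 ± 0.46, adjusted p = 0.53). The scavenger receptor scarb1, which takes up carotenoids, rose in wild types (1.13 ± 0.17, adjusted p = 7.4e-05) and was not called in mutants (0.69 ± 0.17, adjusted p = 0.0032). Sepiapterin reductase, spra, fell in both genotypes (-1.16 in mutants and -1.73 in wild types).

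**Figure D3:**
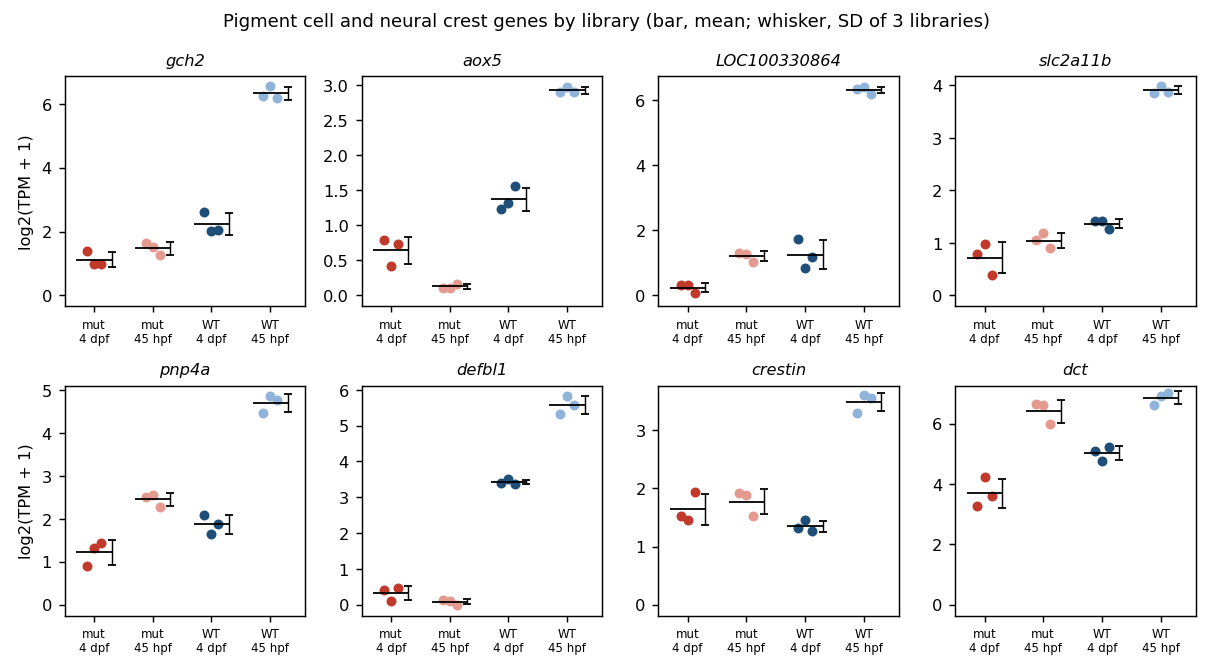
Pigment cell genes by library on the log2(TPM + 1) scale in larval (4 dpf table) and 45 hpf sox10 mutants and wild types; points are libraries, the bar is the mean and the whisker the SD of 3 libraries. For gch2 the mutant libraries lie between 0.967 and 2.15 TPM at both stages, whereas the wild-type libraries at 45 hpf lie between 71.9 and 94.5 TPM.

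Iridophores, the reflective cells filled with purine crystals, had 3 listed genes called in the genotype difference. Of 18 tested iridophore genes 4 fell and 1 rose in mutants, near or below the 23.7% and 11.4% of all tested genes, with a median of -0.20, and 6 fell in wild types, with a median of -0.89. The purine nucleoside phosphorylase pnp4a had 0.863, 1.5 and 1.71 TPM in larval mutants, against 4.74, 4.86 and 3.89 TPM in mutants at 45 hpf, a fall (-1.23 ± 0.19, adjusted p = 1.3e-04). In wild types pnp4a had 3.26, 2.12 and 2.69 TPM in larvae, against 21.3, 28.2 and 26.4 TPM at 45 hpf, a larger one (-2.84 ± 0.19, adjusted p = 7.4e-08; difference 1.6 ± 0.27, adjusted p = 0.033, 5 of 12 fits). The beta-defensin-like gene defbl1 was nearly absent from mutants, with 0.339, 0.0767 and 0.373 TPM in larvae, against 0.0877, 0.0801 and 0 TPM at 45 hpf. In wild types defbl1 had 9.57, 10.3 and 9.42 TPM in larvae, against 39.2, 55.8 and 46.4 TPM at 45 hpf (difference 2.4 ± 0.24, adjusted p = 6.0e-04; 12 of 12 fits). The apolipoprotein D gene apoda.1 had 0.484, 0.195 and 0.675 TPM in larval mutants, against 0.134, 0.0408 and 0.122 TPM in mutants at 45 hpf. In wild types apoda.1 had 9.12, 7.66 and 10.9 TPM in larvae, against 17.9, 21.1 and 18.0 TPM at 45 hpf (difference 1.36 ± 0.25, adjusted p = 0.038, 1 of 12 fits). Both defbl1 and apoda.1 lay below 1 TPM in every mutant library and passed the filter only through wild types. Their 45 hpf mutant values left no room for a 2-fold fall on the tested scale. The IMP dehydrogenase impdh1b, an enzyme of purine synthesis, fell in both genotypes (-1.64 in mutants and -1.77 in wild types). The member that rose in mutants was the LIM-domain gene fhl2b, with 1.82, 2.17 and 2.29 TPM in larval mutants, against 0.641, 0.583 and 0.270 TPM at 45 hpf (1.05 ± 0.17, adjusted p = 1.7e-04; wild types 0.28). The transcription factor tfec fell in wild types (-1.16 ± 0.19, adjusted p = 1.4e-04) and was not called in mutants (-0.38 ± 0.19, adjusted p = 0.093), and the melanosomal glycoprotein gpnmb had a difference of 1.06 ± 0.23, adjusted p = 0.068. The iridophore receptor ltk did not pass the filter, with at most 0.0837 TPM in any mutant library.

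Genes outside the pigment lists met the same rule, among them LOC100330864, which had the largest positive difference of all tested genes that were called. Its levels in mutants were low at both stages and lower in larvae, by just under 2-fold on the tested scale, so that its loss was smaller than in wild types and not absent. LOC100330864 had 0.248, 0.243 and 0.0574 TPM in larval mutants, against 1.48, 1.41 and 1.03 TPM in mutants at 45 hpf (-0.96 ± 0.21, adjusted p = 0.0016). In wild types it had 2.32, 0.793 and 1.28 TPM at the larval stage, against 80.0, 83.4 and 72.4 TPM at 45 hpf (difference 4.1 ± 0.30, adjusted p = 1.0e-04; 12 of 12 fits). The mutant stages did not overlap, and no mutant library came near the wild-type libraries of 45 hpf. The gene si:dkey-251i10.2 had 0.869, 0.409 and 1.06 TPM in larval mutants, against 0.374, 0.513 and 0.255 TPM in mutants at 45 hpf. In wild types si:dkey-251i10.2 had 21.2, 12.5 and 20.0 TPM in larvae, against 151, 171 and 166 TPM at 45 hpf (difference 3.50 ± 0.29, adjusted p = 1.1e-04; 12 of 12 fits). The acyltransferase-family gene oacyl (2.33 ± 0.19, adjusted p = 1.0e-04; 9 of 12 fits), the organic anion transporter slc22a7a (2.19 ± 0.26, adjusted p = 0.0034; 12 of 12 fits) and si:ch211-243a20.3 (2.2 ± 0.31, adjusted p = 0.011; 9 of 12 fits) followed, with 45 hpf mutant values of at most 0.404 TPM in each case. For these genes and si:dkey-251i10.2 the 45 hpf mutant values left no room for a 2-fold fall on the tested scale.

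Melanin genes behaved otherwise. Melanin is made by melanophores and also by the retinal pigment epithelium, which does not come from the neural crest. Of 16 tested melanophore and melanin synthesis genes 11 fell and 1 rose in mutants, where 23.7% of all tested genes fell and 11.4% rose. In wild types 9 fell and 2 rose. The medians were -1.54 in mutants and -1.25 in wild types, and no genotype difference was called. Tyrosinase, tyr, the first enzyme of melanin synthesis, had 0.227, 0.659 and 0.180 TPM in larval mutants, against 14.9, 10.6 and 4.48 TPM in mutants at 45 hpf (-2.91 ± 0.41, adjusted p = 6.1e-05). In wild types tyr had 4.94, 2.02 and 7.01 TPM in larvae, against 12.2, 21.6 and 21.7 TPM at 45 hpf (-1.85 ± 0.41, adjusted p = 0.0017). The melanosome protein pmela had 7.85, 16.8 and 11.1 TPM in larval mutants, against 66.6, 71.2 and 43.4 TPM in mutants at 45 hpf (-2.27 ± 0.27, adjusted p = 1.5e-05). In wild types pmela had 48.6, 37.6 and 54.3 TPM in larvae, against 63.0, 89.2 and 98.2 TPM at 45 hpf (-0.81 ± 0.27, adjusted p = 0.019). At 45 hpf the genotypes overlapped for tyr and pmela, and at the larval stage every mutant library lay below every wild-type library. Such a separation was common as deposited: it held for 42.5% of all tested genes at the larval stage and for 22.4% at 45 hpf. The differences, -1.06 ± 0.58, adjusted p = 0.39 for tyr and -1.46 ± 0.38, adjusted p = 0.12 for pmela, were not called as deposited; for pmela the rescaled one was (-1.27). Dopachrome tautomerase, dct, fell in both genotypes (-2.73 in mutants and -1.81 in wild types), as did tyrp1b (-2.75 in mutants and -1.44 in wild types). The transporter slc45a2 rose in wild types (1.15 ± 0.26, adjusted p = 0.0019) and not in mutants (-0.09 ± 0.26, adjusted p = 0.77; difference -1.25 ± 0.37, adjusted p = 0.15).

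The melanophore master regulator mitfa fell in both genotypes. It had 0.176, 0.341 and 0.575 TPM in larval mutants, against 4.18, 4.95 and 3.84 TPM in mutants at 45 hpf (-1.97 ± 0.19, adjusted p = 2.1e-06). In wild types mitfa had 1.29, 0.570 and 1.17 TPM in larvae, against 6.83, 8.2 and 6.90 TPM at 45 hpf (-2.06 ± 0.19, adjusted p = 9.9e-07); the difference was 0.09 ± 0.26. The ion exchanger slc24a4a rose in both genotypes (1.28 in mutants and 1.36 in wild types). Of the melanophore receptors, kita and mc1r did not pass the filter, with at most 0.507 TPM of kita and 0.115 TPM of mc1r in any mutant library.

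Myelin and Schwann cell genes moved in both directions, with a median of 0.06 in mutants and 0.13 in wild types, and 1 was called in the genotype difference. The list was written with the symbol cd59, and these counts leave out cd59a, which is described below. Of 23 tested genes of myelin and Schwann cells 8 rose and 7 fell in mutants, and 10 rose and 7 fell in wild types. All 8 rises and all 7 falls in mutants were shared with wild types. Over all tested genes 11.4% rose and 23.7% fell in mutants. The myelin basic protein gene mbpa had 42.5, 43.4 and 40.0 TPM in larval mutants, against 0.630, 0.305 and 0.382 TPM in mutants at 45 hpf (4.91 ± 0.18, adjusted p = 1.5e-09). In wild types it had 200.4, 123 and 177 TPM at the larval stage, against 0.685, 0.567 and 0.969 TPM at 45 hpf (6.57 ± 0.18, adjusted p = 9.1e-11). All 6 libraries of 45 hpf were below 1 TPM, and the larval mutant libraries agreed closely at a level below every larval wild type. The difference of -1.66 ± 0.26, adjusted p = 0.020 was called, in 5 of 12 leave-one-out fits (-1.87 to -1.52), and was -1.25 after rescaling; it was lost with a pseudocount of 0.1.

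Other myelin genes had negative differences that were not called. For mpz, myelin protein zero, the larval mutants had 5.90, 7.89 and 6.23 TPM, against 2.53, 2.06 and 2.94 TPM at 45 hpf (1.13 ± 0.23, adjusted p = 8.8e-04), and the larval wild types 23.5, 17.0 and 22.7 TPM, against 1.38, 3.08 and 3.06 TPM at 45 hpf, a difference of -1.55 ± 0.32, adjusted p = 0.059. For the proteolipid gene plp1b the values were 19.8, 19.4 and 25.2 TPM in larval mutants, against 0.857, 0.806 and 0.939 TPM at 45 hpf. In wild types plp1b had 48.7, 40.0 and 46.7 TPM in larvae, against 0.845, 0.883 and 1.14 TPM at 45 hpf (difference -0.98 ± 0.21, adjusted p = 0.071). The myelin-associated glycoprotein mag spread widely in larval mutants, at 0.570, 6.76 and 1.83 TPM, against 0.840, 0.486 and 0.255 TPM at 45 hpf (1.11 ± 0.47, adjusted p = 0.058); in larval wild types it had 21.7, 10.8 and 24.1 TPM, against 0.626, 1.65 and 0.720 TPM at 45 hpf (3.28 ± 0.47, adjusted p = 6.2e-05; difference -2.17 ± 0.67, adjusted p = 0.17). The mbpa paralogue mbpb rose in both genotypes (1.17 in mutants and 2.03 in wild types; difference -0.86 ± 0.26, adjusted p = 0.16).

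Further genes of the list gave no call in the genotype difference. The Schwann cell and hindbrain transcription factor egr2b rose in mutants (1.32 ± 0.14, adjusted p = 5.7e-06; difference -0.59 ± 0.20, adjusted p = 0.19), as did the adhesion protein cntn1b (1.51 ± 0.17, adjusted p = 1.1e-05; difference -0.34 ± 0.25, adjusted p = 0.52). The proteolipid gene plp1a fell in both, with 1.48, 2.24 and 1.12 TPM in larval mutants, against 46.3, 42.0 and 30.2 TPM at 45 hpf (-3.95 ± 0.19, adjusted p = 9.7e-09; difference 0.24 ± 0.27, adjusted p = 0.70). The Schwann cell receptor erbb3b did not pass the filter, with at most 0.855 TPM in any mutant library.

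**Figure D4:**
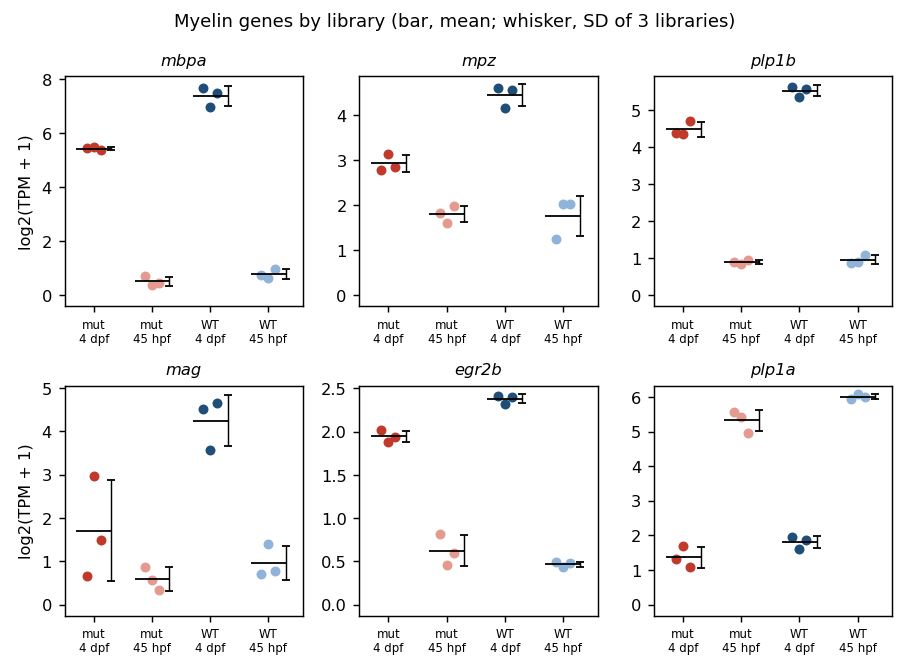
Myelin genes by library on the log2(TPM + 1) scale in larval (4 dpf table) and 45 hpf sox10 mutants and wild types; points are libraries, the bar is the mean and the whisker the SD of 3 libraries. Larval mutants lie between 40.0 and 43.4 TPM for mbpa, above all 45 hpf libraries and below the larval wild types at 123 TPM or more, whereas plp1a falls in both genotypes.

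Enteric and autonomic genes gave no call in the genotype difference. Of 18 tested members 4 rose and 5 fell in mutants, where 11.4% of all tested genes rose and 23.7% fell. In wild types 5 rose and 5 fell. The medians were 0.04 in mutants and 0.39 in wild types. Many members are also known from central neurons, so the list does not isolate the gut. After rescaling 7 rose in mutants. Vasoactive intestinal peptide, vip, a transmitter of enteric and brain neurons, had 44.5, 33.1 and 42.7 TPM in larval mutants, against 1.98, 2.22 and 1.92 TPM at 45 hpf (3.74 ± 0.18, adjusted p = 8.4e-09). In wild types vip had 42.6, 42.0 and 31.3 TPM in larvae, against 1.43, 2.32 and 1.88 TPM at 45 hpf. Its difference was -0.04 ± 0.25. Neuromedin U, nmu, rose too (2.06 ± 0.20, adjusted p = 2.6e-06; difference 0.21 ± 0.28, adjusted p = 0.75). The autonomic determinants phox2bb (-1.52 ± 0.15, adjusted p = 3.3e-06) and phox2a (-1.57 ± 0.17, adjusted p = 5.3e-06) fell, with differences of 0.22 ± 0.21 and 0.11 ± 0.23. The GDNF co-receptor gfra1a had 1.46, 4.44 and 2.06 TPM in larval mutants, against 3.36, 1.94 and 1.23 TPM at 45 hpf, which overlapped (0.17 ± 0.39, adjusted p = 0.72). In wild types gfra1a had 10.8, 5.34 and 15.8 TPM in larvae, against 1.88, 3.89 and 3.24 TPM at 45 hpf (1.46 ± 0.39, adjusted p = 0.0054; difference -1.29 ± 0.55, adjusted p = 0.28). The nitric oxide synthase nos1 did not pass the filter.

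Sensory neurons are partly of placodal and Rohon-Beard origin. Of 17 tested genes 1 rose and 3 fell in mutants, where 11.4% of all tested genes rose and 23.7% fell. In wild types 2 rose and 3 fell. The calcitonin gene calca rose (1.59 ± 0.20, adjusted p = 2.2e-05) and the proneural factor neurog1 fell (-3.90 ± 0.18, adjusted p = 7.4e-09), with differences of -0.16 ± 0.28 and 0.20 ± 0.25. The POU factor pou4f3, which hair cells and some sensory and retinal neurons use, had 1.26, 5.39 and 2.55 TPM in larval mutants, against 7.35, 3.47 and 4.00 TPM at 45 hpf (-0.62 ± 0.40, adjusted p = 0.19). In wild types pou4f3 had 9.95, 10.5 and 8.23 TPM in larvae, against 0.665, 3.16 and 2.66 TPM at 45 hpf (1.84 ± 0.40, adjusted p = 0.0015). Its difference did not pass (-2.46 ± 0.57, adjusted p = 0.080).

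In the ear 1 gene was called in the genotype difference. Of 13 tested otic genes 2 rose and 1 fell in mutants, where 11.4% of all tested genes rose and 23.7% fell. In wild types 3 rose and 3 fell. Otoferlin, otofa, which hair cells need for transmitter release, rose in mutants to 11.4, 11.0 and 11.7 TPM, against 5.15, 2.69 and 3.38 TPM at 45 hpf (1.42 ± 0.24, adjusted p = 2.9e-04; wild types 1.74). Beta-tectorin, tectb, a matrix protein of the otic epithelium, had 1.79, 1.16 and 2.51 TPM in larval mutants, against 1.16, 1.15 and 0.689 TPM in mutants at 45 hpf, which touched (0.48 ± 0.21, adjusted p = 0.069). In wild types tectb had 2.00, 1.88 and 1.41 TPM in larvae, against 5.69, 8.97 and 7.21 TPM at 45 hpf. This was a missing loss (difference 2.05 ± 0.30, adjusted p = 0.014; 8 of 12 fits). The otolith matrix gene otomp, named after its values were seen, was also lower in mutants at 45 hpf (-2.51 ± 0.31, adjusted p = 0.0018), but its difference did not pass (1.64 ± 0.44, adjusted p = 0.13).

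Cartilage and bone genes gave no genotype difference call. Of 23 tested cartilage genes 4 rose and 11 fell in mutants, and 3 rose and 12 fell in wild types, with medians of -0.87 in mutants and -1.22 in wild types; after rescaling 8 fell in mutants, and with 1 mutant library left out 7 to 13 did. Matrilin 1, matn1, had 36.6, 23.4 and 15.7 TPM in larval mutants, against 0.741, 0.572 and 0.395 TPM at 45 hpf (3.99 ± 0.26, adjusted p = 1.0e-07; wild types 3.58). The link protein hapln1a had 5.22, 6.35 and 5.2 TPM in larval mutants, against 95.7, 79.1 and 61.1 TPM at 45 hpf (-3.58 ± 0.19, adjusted p = 1.8e-08; wild types -4.24). The chondrogenic factor sox9a fell in mutants (-2.03 ± 0.50, adjusted p = 0.0038) and was not called in wild types (-1.0 ± 0.50, adjusted p = 0.10), and its difference was not called (-1.03 ± 0.71, adjusted p = 0.50). Of 12 tested bone genes 2 rose and 3 fell in mutants, against 1 and 3 in wild types. Over all tested genes 11.4% rose and 23.7% fell in mutants. Osteopontin, spp1, rose in mutants (1.19 ± 0.13, adjusted p = 7.7e-06) and type I collagen col1a1a fell (-1.82 ± 0.30, adjusted p = 2.0e-04), with differences of -0.07 ± 0.19 and 0.41 ± 0.42.

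Of the 41 genes with a negative difference, only mbpa was counted on a list of neural crest, pigment, myelin or enteric genes, and 20 rose in both genotypes but less in mutants. The myelin list was written with the symbol cd59, and cd59a was not counted under it. The difference of cd59a, -2.10, was called in all 12 leave-one-out fits. A gain was counted as missing where a gene was called higher in wild types, was not called higher in mutants and was called in the difference; 14 genes met this, and none of them was called different between the genotypes at 45 hpf. All 14 were called lower in larval mutants than in larval wild types, from libraries the difference also uses. As deposited, 14.4% of all tested genes were called lower there. None of the 14 was called in all 12 leave-one-out fits, although LOC799643 was called in each of the 9 that tested it. LOC799643 passed the filter only through the larval wild types, where it was high, and went untested without any 1 of them. Without larval wild-type replicate 3 no gene was counted as missing a gain, and without larval mutant replicate 2 the number was 322. LOC799643, called in more fits than the others, had 0.0306, 0 and 0.00843 TPM in larval mutants and was listed at 0 in all mutants at 45 hpf, and had 3.34, 2.92 and 3.21 TPM in larval wild types, against 0.0437, 0.0378 and 0 TPM at 45 hpf (difference -2.00 ± 0.16, adjusted p = 1.0e-04; 9 of 12 fits). The muscle subunit of cytochrome c oxidase cox6a2 (-1.78 ± 0.30, adjusted p = 0.033, 3 of 12 fits) and the VIP receptor vipr2 (-1.34 ± 0.23, adjusted p = 0.034, 2 of 12 fits) were others. Both cox6a2 and vipr2 were tested in only 9 of the 12 fits. Each passed the filter only through 3 libraries and went untested without any 1 of these. LOC799643 and vipr2 were named after their values were seen.

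Among the smaller gains was that of klf9, a transcription factor induced by glucocorticoids and thyroid hormone. It had 3.62, 3.32 and 2.47 TPM in larval mutants, against 0.118, 0.172 and 0.215 TPM in mutants at 45 hpf (1.82 ± 0.27, adjusted p = 8.6e-05). In wild types it had 33.2, 22.8 and 59.3 TPM at the larval stage, against 0.259, 0.280 and 0.155 TPM at 45 hpf (4.90 ± 0.27, adjusted p = 1.1e-08). The larval genotypes were far apart while the 45 hpf libraries lay side by side (-0.07 ± 0.27, adjusted p = 0.89), and the difference of -3.08 ± 0.38, adjusted p = 0.0040 was called in 12 of 12 leave-one-out fits. The ammonia channel rhcga of skin ionocytes had 12.1, 31.0 and 19.0 TPM in larval mutants, against 0.637, 1.75 and 0.870 TPM at 45 hpf (3.32 ± 0.33, adjusted p = 3.5e-06). In wild types rhcga had 79.1, 157 and 146 TPM in larvae, against 0.646, 0.263 and 0.347 TPM at 45 hpf (difference -3.13 ± 0.47, adjusted p = 0.015; 6 of 12 fits). The clone-named genes si:dkey-57a22.15 (-3.75 ± 0.64, adjusted p = 0.034; 2 of 12 fits) and si:dkey-200l5.4 (-2.79 ± 0.22, adjusted p = 1.0e-04; 12 of 12 fits) rose less in mutants in the same way.

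Other genes with a negative difference were named after their values were seen. The complement regulator cd59a had 7.33, 8.22 and 9.13 TPM in larval mutants, against 0.380, 0.732 and 0.182 TPM at 45 hpf. In wild types cd59a had 51.3, 43.2 and 43.3 TPM in larvae, against 0.569, 1.02 and 0.483 TPM at 45 hpf (difference -2.1 ± 0.26, adjusted p = 0.0045; 12 of 12 fits, but not with a pseudocount of 0.1). The muscle ubiquitin ligase fbxo32, known from atrophy in mammals, had 12.4, 25.4 and 18.2 TPM in larval mutants, against 0.714, 0.580 and 0.363 TPM at 45 hpf. In wild types fbxo32 had 67.1, 61.6 and 141 TPM in larvae, against 0.383, 0.559 and 0.420 TPM at 45 hpf (difference -2.25 ± 0.42, adjusted p = 0.045; 2 of 12 fits). The gluconeogenic enzyme pck1 differed by -2.17 ± 0.39, adjusted p = 0.036 (2 of 12 fits), the uncoupling protein ucp1 by -1.96 ± 0.35, adjusted p = 0.036 (3 of 12 fits), the growth factor-binding protein igfbp1b by -1.80 ± 0.34, adjusted p = 0.049 (2 of 12 fits) and the prion-family gene prnpa by -1.97 ± 0.38, adjusted p = 0.049 (1 of 12 fits). In each of these genes the larval mutant libraries lay above every 45 hpf library and below every larval wild type. A gene without a symbol, ENSDARG00000094696, differed by -2.55 ± 0.26, adjusted p = 8.3e-04 (12 of 12 fits).

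**Figure D5:**
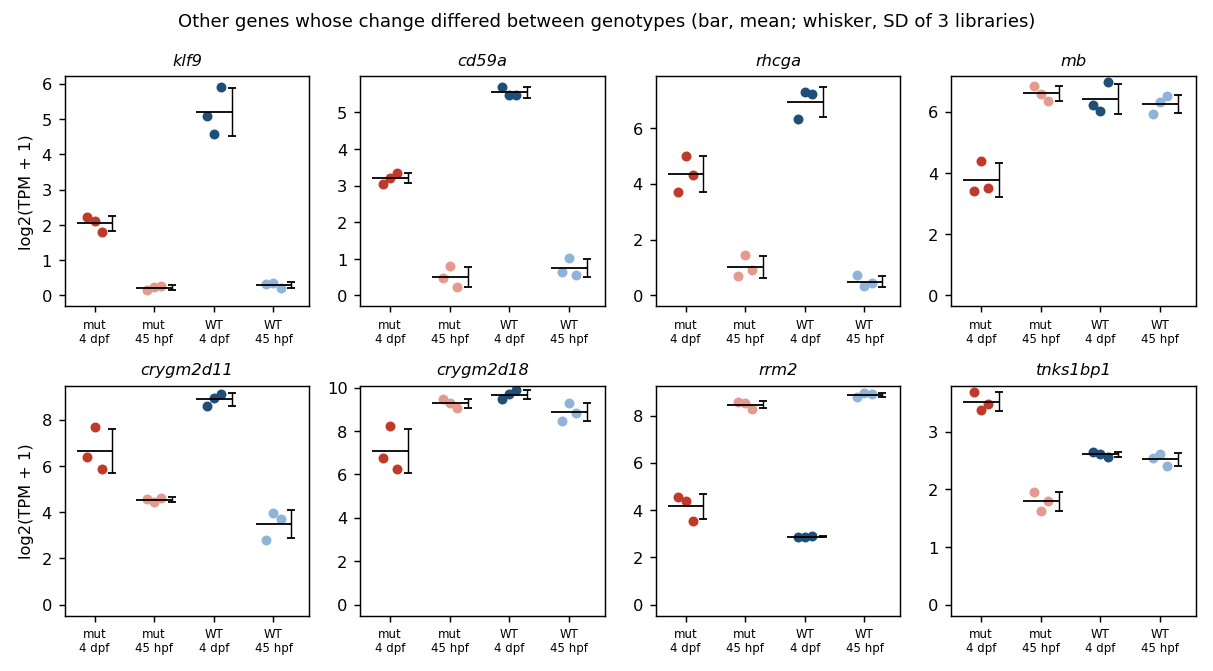
Genes called in the genotype difference in development (mutant change minus wild-type change), on the log2(TPM + 1) scale. In the limma fit of 12 libraries the difference was -3.13 for rhcga, -3.08 for klf9 and -2.99 for mb.

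A few genes fell in mutants and held or rose in wild types. Myoglobin, mb, the oxygen store of muscle, had 9.69, 20.1 and 10.3 TPM in larval mutants, against 114, 95.2 and 81.0 TPM in mutants at 45 hpf (-2.83 ± 0.29, adjusted p = 4.4e-06). In wild types mb had 74.0, 64.3 and 124 TPM in larvae, against 59.3, 79.1 and 89.4 TPM at 45 hpf (0.16 ± 0.29, adjusted p = 0.64). The mutant stages did not overlap while the wild-type stages did, and the difference of -2.99 ± 0.41, adjusted p = 0.0084 was called in 12 of 12 leave-one-out fits. The other genes of this kind were mainly lens crystallins, the structural proteins of the lens fibre. Of 45 tested lens genes 38 fell and 1 rose in mutants, with a median of -1.82, and 7 fell and 11 rose in wild types, with a median of 0.53. After rescaling 30 fell in mutants.

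The crystallin cryba4 had 77.7, 196 and 48.4 TPM in larval mutants, against 604, 629 and 485 TPM in mutants at 45 hpf (-2.64 ± 0.40, adjusted p = 1.2e-04). In wild types cryba4 had 551, 547 and 813 TPM in larvae, against 358, 693 and 494 TPM at 45 hpf (difference -2.97 ± 0.57, adjusted p = 0.049; 2 of 12 fits). The same pattern held for crygm2d18 (-3.01 ± 0.55, adjusted p = 0.040; 2 of 12 fits) and crygn2 (-2.83 ± 0.55, adjusted p = 0.049; 1 of 12 fits). The member that rose in mutants, crygm2d11, did so less than in wild types (2.1 in mutants and 5.38 in wild types; difference -3.28 ± 0.56, adjusted p = 0.034; 3 of 12 fits). The count of lens genes called in the difference was 6, all negative. It was 15 after rescaling, 36 without larval mutant replicate 2, which held more crystallin RNA than the other larval mutants, and 0 without any one of the other mutant libraries. Crystallin genes are close copies, and the split of reads between them is uncertain.

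The gene with the most negative difference after si:dkey-57a22.15, ENSDARG00000042872, had 2.12, 7.90 and 2.90 TPM in larval mutants, against 15.5, 8.37 and 8.90 TPM in mutants at 45 hpf (-1.27 ± 0.47, adjusted p = 0.033). In wild types it had 14.7, 15.9 and 25.5 TPM at the larval stage, against 0.818, 5.21 and 4.39 TPM at 45 hpf (2.28 ± 0.47, adjusted p = 0.0010; difference -3.55 ± 0.67, adjusted p = 0.045, 2 of 12 fits). It was thus called in opposite directions.

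Few genes met the rule for a change in mutants only, which asks for a call in the genotype difference. Genes that were called higher in mutants, not called higher in wild types and called in the difference numbered 8, and genes that fell in mutants under the corresponding rule numbered 7. The tankyrase-binding protein gene tnks1bp1, named after its values were seen, had 11.9, 9.39 and 10.18 TPM in larval mutants, against 2.88, 2.08 and 2.49 TPM in mutants at 45 hpf (1.72 ± 0.15, adjusted p = 1.1e-06). In wild types tnks1bp1 had 5.27, 5.12 and 4.92 TPM in larvae, against 4.82, 5.09 and 4.28 TPM at 45 hpf (difference 1.63 ± 0.21, adjusted p = 0.0058; 12 of 12 fits). The gene zgc:174353 had 10.0, 5.10 and 9.56 TPM in larval mutants, against 0.479, 0.493 and 0.918 TPM in mutants at 45 hpf, and at most 1.05 TPM in any wild-type library (difference 2.51 ± 0.45, adjusted p = 0.036; 3 of 12 fits). LOC108191592, likewise named afterwards, had 2.46, 1.93 and 3.29 TPM in larval mutants and at most 0.22 TPM in any other library (difference 1.61 ± 0.22, adjusted p = 0.0082; 9 of 12 fits). It passed the filter only through the larval mutants and went untested without any 1 of them. ENSDARG00000103371 rose more in mutants than in wild types (difference 2.35 ± 0.44, adjusted p = 0.042; 2 of 12 fits).

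The study concerns bone mineralization, and calcium hormones were compared for that reason. Of 23 tested genes of calcium hormones and skin ionocytes 10 rose and 1 fell in mutants, and 11 rose in wild types, with medians of 0.69 in mutants and 0.99 in wild types. The stanniocalcin gene stc1l, whose hormone in fish lowers calcium uptake, had 14.1, 17.7 and 15.3 TPM in larval mutants, against 2.87, 3.58 and 1.32 TPM in mutants at 45 hpf (2.27 ± 0.28, adjusted p = 2.1e-05). In wild types stc1l had 10.5, 5.68 and 11.9 TPM at the larval stage, against 0.672, 0.254 and 0.388 TPM at 45 hpf (2.80 ± 0.28, adjusted p = 2.7e-06). Every mutant library lay above every wild-type library of its stage, while the genotype difference in the change was not called (-0.53 ± 0.40, adjusted p = 0.53). Parathyroid hormone pth1a had 10.5, 18.4 and 8.78 TPM in larval mutants, against 2.32, 1.56 and 2.13 TPM in mutants at 45 hpf (2.12 ± 0.27, adjusted p = 2.9e-05). In wild types pth1a had 2.25, 1.02 and 1.22 TPM in larvae, against 0.530, 1.06 and 1.38 TPM at 45 hpf (0.32 ± 0.27, adjusted p = 0.32; difference 1.80 ± 0.39, adjusted p = 0.068, called after rescaling at 2.08). The member that fell in mutants was pth4, a parathyroid hormone relative of hypothalamic neurons (-1.56 ± 0.36, adjusted p = 0.0026; difference -0.77 ± 0.52, adjusted p = 0.48). The epithelial calcium channel trpv6 did not pass the filter: it had 0.107, 0.247 and 0.442 TPM in larval mutants, against 0.296, 0.154 and 0.105 TPM at 45 hpf, and the stages overlapped (two-sided exact permutation p = 0.60, 0.1 being the smallest that 3 against 3 libraries allow).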

How the data were processed

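RNAseq was made from pools of whole zebrafish. Per the labels' protocol, libraries were poly-A selected and made with a stranded TruSeq kit. The study's methods give paired-end reads on a NovaSeq, trimming and kallisto, the submitters' processing notes name Trimmomatic 0.39 and GRCz11, and the authors deposited TPM per gene. The column titles of the 4 dpf table are misaligned, so its columns were read by number. After 315 repeat lines were dropped, 25581 genes were matched by identifier, and the 18987 genes that reached 1 TPM in 3 or more of the 12 libraries were tested. The study's own test needs read counts and was not repeated on TPM. Instead log2(TPM + 1) of 4 groups of 3 libraries was fitted in limma 3.58.1 (R 4.3.3) with a mean-variance trend. Tables were joined in Python 3.11.15 with pandas 2.3.3. The scripts were run on simulated data with rises added in larval mutants, called at 1.25-fold and not at 2-fold. That run held no shifts in composition between libraries, so it does not measure how reliable the calls given here are.

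Named genes were drawn from the 10 largest rises and falls in mutants, the 10 most positive and negative genotype differences, up to 4 members per list, and the pigment, glial and enteric lists. Not every gene these rules name is described, and the lists are not shown in full. In the enteric list, for instance, insm1a and ednrba were named by rule and are not described. Genes from outside these rules are said to be named after their values were seen. Groups, lists and rules were chosen with earlier results of these data known. Of 1103 listed symbols 1033 matched. Alternatives were other scalings, pseudocounts, filters, fold minimums, a replicate block and leaving out each library. The combinations with rescaling, the removal of genes above 10000 TPM and the joint removal of a pair of mutant libraries were added after seeing the data.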

Additional observations from a re-analysis of the deposited data

Results flagged for a closer look

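Each value below is a genotype difference in development, the change in sox10 mutants minus the change in wild types on the log2(TPM + 1) scale, that passed the test of the difference itself in limma with Benjamini-Hochberg adjustment. No explanation for any of them was tested.

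Among neural crest and pigment cell genes the difference was 2.01 for crestin, 3.75 for gch2, 2.07 for aox5, 1.67 for slc2a15a and 2.22 for slc2a11b. It was 1.6 for pnp4a, 2.4 for defbl1 and 1.36 for apoda.1, and -1.66 for the myelin gene mbpa. For the otic gene tectb it was 2.05.

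Genes outside these lists with a positive difference were LOC100330864 (4.1), si:dkey-251i10.2 (3.50), zgc:174353 (2.51), ENSDARG00000103371 (2.35), oacyl (2.33), si:ch211-243a20.3 (2.2), slc22a7a (2.19), rrm2 (1.70), tnks1bp1 (1.63), LOC108191592 (1.61) and rrm1 (1.38).

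Negative differences were found for si:dkey-57a22.15 (-3.75), ENSDARG00000042872 (-3.55), rhcga (-3.13), klf9 (-3.08), mb (-2.99), si:dkey-200l5.4 (-2.79), ENSDARG00000094696 (-2.55) and fabp6 (-2.49). They were also found for the crystallins crygm2d11 (-3.28), crygm2d18 (-3.01), cryba4 (-2.97) and crygn2 (-2.83), and for fbxo32 (-2.25), pck1 (-2.17), cd59a (-2.1), LOC799643 (-2.00), prnpa (-1.97), ucp1 (-1.96), igfbp1b (-1.80), cox6a2 (-1.78) and vipr2 (-1.34).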

How the results depend on the processing

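Counts of changed genes in mutants, 2164 higher and 4500 lower, moved by over 1.5 times at the study's lower fold minimum (4022 higher and 7752 lower), at a fold minimum of 4 (686 and 1059) and where a mean of at least 5 TPM was asked (1363 higher). For wild types these settings gave 5088 higher and 6945 lower, 1053 and 1090, and 1738 higher. The genotype difference, 40 positive and 41 negative, gave 13 and 21 at a fold minimum of 4, 245 and 197 after quantile normalization, 20 and 6 with a pseudocount of 0.1, 20 positive at a mean of at least 5 TPM, 20 negative with no filter, and 149 and 78 without genes above 10000 TPM. Missing gains and missing losses, 14 and 17, numbered 7 and 7 at a fold minimum of 4, 91 and 53 after quantile normalization, 1 and 11 with the smaller pseudocount, 4 and 6 at the higher mean, and 23 and 30 without genes above 10000 TPM. Without larval mutant replicate 1 and 45 hpf mutant replicate 3 together the difference gave 11 and 9 calls, with 3 missing gains and 9 missing losses. The cause of these shifts was not tested.

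With 1 library left out in turn, as deposited or after median-of-ratios rescaling, genes higher in mutants numbered 1949 to 3317, the difference 11 to 693 positive and 6 to 1108 negative, missing gains 0 to 369 and missing losses 8 to 141; the upper ends came without larval mutant replicate 2 for the difference, missing gains and missing losses. crestin had a change in mutants of 0.12 after rescaling, against -0.13 as deposited. For gins1 the change in mutants was -0.22 as deposited, 0.11 after rescaling, and -0.41 to 0.015 with 1 library left out. Over single named genes and settings, 1666 changes in mutants and 533 genotype differences kept their direction and side of the threshold, and 7 and 246 fell short of it.

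The labels give replicate numbers 1 to 3 in each group. Same-numbered mutant libraries of the stages correlated in their deviations from the group means at -0.24, -0.10 and 0.29, and wild types at 0.11, -0.27 and 0.01. These few values cannot settle whether the numbers pair samples across the stages. Correlation between same-numbered mutant and wild-type libraries within a stage was not examined. A replicate block gives all libraries with the same number a shared effect, across both genotypes and both stages. With the number as a replicate block the difference gave 18 positive and 15 negative calls and 3 missing gains, and after rescaling 18 negative calls and 6 missing gains. TPM keep no depth, so what depth limits was not analysed here.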

Other observations

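Of 37 tested clock genes 18 rose and 5 fell in mutants, against 23 and 3 in wild types, and none was called in the genotype difference, although 5 had negative calls when larval mutant replicate 2 was left out. The repressor nr1d1 had 60.0, 94.5 and 103 TPM in larval mutants, against 0.479, 0.422 and 0.103 TPM in mutants at 45 hpf (6.0 ± 0.25, adjusted p = 3.2e-09), with a difference of 0.09 ± 0.36, and bhlhe41 rose as well (5.17 ± 0.40, adjusted p = 4.2e-07). The nuclear receptor rorca rose in wild types (2.42 ± 0.45, adjusted p = 4.6e-04) and was not called in mutants (-0.15 ± 0.45, adjusted p = 0.78), and its difference was not called (-2.57 ± 0.64, adjusted p = 0.10). Sampling times within the day are not given in the sources used here.

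Among 19 tested genes of the pigment epithelium and visual cycle 5 rose and 6 fell in mutants, against 10 and 4 in wild types. Among 20 tested pituitary and hypothalamic hormone genes 7 rose and 2 fell in mutants, against 9 and 3 in wild types. Of 42 tested immediate early and stress genes 18 rose and 6 fell in mutants, against 18 and 5 in wild types, with 2 negative genotype differences. The genes of this list summed to 24400, 27909 and 3991 TPM in larval mutants, against 1966, 7878 and 1417 TPM in mutants at 45 hpf. In wild types the sums were 2493, 3957 and 6825 TPM in larvae, against 13170, 5472 and 1819 TPM at 45 hpf. Differences of the members ran from -3.08 to 3.19, and no positive one was called. Among 20 tested neutrophil and macrophage genes 6 rose in mutants, against 6 that rose and 1 that fell in wild types. After rescaling 11 rose in mutants and 5 in wild types, and with 1 mutant library left out 3 to 7 rose in mutants, 3 being the count without larval replicate 3.

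Of 51 tested genes of the muscle sarcomere 9 rose and 6 fell in mutants, against 20 and 6 in wild types, and the mutant count depended on the scaling and on single libraries. After rescaling 18 rose in mutants. As deposited it was 21 and 5 without larval replicate 1, 6 and 12 without larval replicate 2, 5 and 5 without larval replicate 3, and 4 and 7 without 45 hpf replicate 3. The genes of the list summed to 26413, 117041 and 56981 TPM in the larval mutant libraries, against 38674, 27783 and 16867 TPM in mutants at 45 hpf.

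None of the 13 mitochondrially encoded protein genes was called in mutants, and 4 fell in wild types; after rescaling 2 rose in mutants and 2 fell in wild types, and without larval mutant replicate 2 also 2 rose in mutants. Over all tested genes the genotype difference was below 0 for 60.5% as deposited and 45.2% after rescaling. It was above 0 for all 13 mitochondrial genes as deposited and after rescaling, with a median of 1.04 as deposited, and none of them was called. They took 19.5, 10.7 and 17.1% of the larval mutant libraries, against 11.5, 9.64 and 10.7% of the mutant libraries at 45 hpf, and 8.07, 8.19 and 6.20% of larval wild types, against 11.5, 8.50 and 9.72% of wild types at 45 hpf. For ATP6 the values were 16586, 7776 and 11521 TPM in larval mutants, against 9232, 8760.4 and 8233 TPM at 45 hpf (0.39 ± 0.27, adjusted p = 0.23; difference 1.27 ± 0.38, adjusted p = 0.16). For COX2 the change in mutants was 0.95 ± 0.26, under 2-fold. Of 80 tested cytosolic ribosomal protein genes 1 rose in mutants and 1 in wild types. Of 83 tested nuclear genes of oxidative phosphorylation 5 rose and 10 fell in mutants, against 7 and 6 in wild types, with 1 negative genotype difference; after median-of-ratios rescaling 6 rose and 2 fell in mutants.

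Of 35 tested keratin and claudin genes 8 rose and 5 fell in mutants, against 12 and 4 in wild types; after rescaling 12 rose and 3 fell in mutants. Of 11 tested radial glia and astroglia genes 2 rose and 6 fell in mutants, against 2 and 5 in wild types. Of 12 tested endocrine pancreas genes 2 rose and 3 fell in mutants, against 3 and 2 in wild types, and of 21 tested p53 targets 4 rose and 5 fell in mutants, against 5 and 3 in wild types; after rescaling 3 of the p53 targets fell in mutants.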
